A study of Mus musculus with 24 samples.

Results

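Il9r, Il2rg, Il7r, Il2ra, Il2rb, Il4ra, Il21r and Il15ra encode the chains of the cytokine receptors that use the common gamma chain. These 8 genes were picked by symbol out of 55487 genes in a count table of 24 mouse bulk RNA-seq libraries, and all 8 were among the 18931 genes that passed the filter on low counts. Il9r belongs to the set because its RNA was already known to be higher in MLL::ENL (ME) libraries, so its values are described and not tested. The libraries came from sorted Lineage-negative, Sca1-positive, KIT-positive (LSK) progenitors, the mouse blood compartment of stem cells and multipotent progenitors. There were 6 groups of 4 libraries: control and ME cells of fetal day 16 (E16) from liver, and control and ME cells of postnatal day 14 (P14) and of 8 weeks (8wk) from bone marrow. ME cells carried a Tet-On MLL::ENL, an inducible fusion of MLL (Kmt2a) and ENL (Mllt1) found in leukaemia, which was switched on in culture, and cells were cultured for 48 h. The promoter of the transgene, the inducing agent, the genotype of the controls and whether the 4 libraries of a group came from separate animals are not given in the sources used here. If they did not, p-values measure the spread between these libraries, which may be technical. Age and tissue cannot be told apart between E16 and the later ages.

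The common gamma chain, encoded by Il2rg, has no ligand of its own. It pairs with a private chain that decides which cytokine is bound: Il9r for interleukin 9, Il7r for interleukin 7, Il4ra for interleukin 4 and Il21r for interleukin 21, while Il2rb serves interleukins 2 and 15 together with Il2ra or Il15ra. The private chains bring JAK1 and the common chain brings JAK3, and the kinases activate STAT factors, mainly STAT5, STAT3 and STAT6. Interleukin 7 is the best known of these cytokines in blood progenitors, because mouse B and T lymphocytes need it to develop. Interleukin 9 is best known for its action on mast cells, T cells and innate lymphoid cells.

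Il9r (ENSMUSG00000020279) lies on the minus strand of GRCm38 chromosome 11, from 32187541 to 32200279, and Il2rg (ENSMUSG00000031304) on the minus strand of chromosome X, from 101264378 to 101268255 (GENCODE M21). The 250 bases upstream of the start of each are shown because Il9r had the largest difference of the set between ME and control and Il2rg is the chain it needs as a partner. They read 5′ to 3′ in the direction of transcription, from RefSeq (GRCm38.p6), and capitals mark matches on either strand to AGATAA (bound by GATA factors), TGTGGT (RUNX) and TGACAG (MEIS). The window of Il9r is chr11:32200280-32200529 and that of Il2rg is chrX:101268256-101268505.
Il9r: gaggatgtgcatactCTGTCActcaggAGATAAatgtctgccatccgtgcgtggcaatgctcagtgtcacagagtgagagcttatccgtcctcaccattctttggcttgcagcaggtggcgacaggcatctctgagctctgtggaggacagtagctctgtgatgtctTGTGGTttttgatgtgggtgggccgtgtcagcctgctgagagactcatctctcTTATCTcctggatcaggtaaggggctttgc
Il2rg: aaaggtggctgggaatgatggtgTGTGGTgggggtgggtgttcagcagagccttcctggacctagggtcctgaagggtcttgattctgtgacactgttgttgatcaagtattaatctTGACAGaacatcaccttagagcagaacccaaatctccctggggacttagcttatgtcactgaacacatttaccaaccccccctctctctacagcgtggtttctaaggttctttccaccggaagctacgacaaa

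The Il9r window held 2 matches to AGATAA, 1 to TGTGGT and 1 to TGACAG, and the Il2rg window 1 each of the last 2; no matches overlap. Of 32851 such windows in the RefSeq table, 10.0% held AGATAA, 14.0% held TGTGGT and 15.9% held TGACAG. The Il9r window had 5 CG pairs and the Il2rg window 3, against a median of 6, and 44.4% and 29.0% of all windows had fewer. Il4ra had the most of the set, 17. A window was found for 7 of the 8 genes. The spaced repeat bound by STAT factors, TTCNNNGAA, occurred in the window of Il7r alone, against 7.0% of all windows. These matches describe the letters only.

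The median library held 47.1 M counts, the smallest 33.9 M and the largest 69.3 M. Summed levels of 7 LSK markers, Kit and Ly6a (Sca1) among them, were 2190 to 3670 CPM (counts per M counts of the TMM-scaled library) and none of the 7 was at 0 in any group. Skida1, the gene named in the title of the series, was higher in ME by 4.39, 4.29 and 2.30 log2 at E16, P14 and 8wk. Mllt1, whose counts may hold reads of the fusion beside those of the native gene, was higher by 1.54, 1.60 and 1.48. Kmt2a, whose counts may likewise hold reads of the fusion, was higher by 0.85, 1.03 and 0.73. How much of the fusion was counted under either gene is not given in the sources used here. Replicate 4 of E16 ME, replicate 4 of 8wk ME and replicate 1 of 8wk control stood apart from their groups. They were picked after the data were seen, and results that rest on them are given with and without them.

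Il9r RNA was close to background in every control library and well expressed in every ME library. At E16 its level was 0.698, 0.738, 0.370 and 0.660 CPM in control replicates 1 to 4 and 25.5, 30.3, 34.8 and 45.7 CPM in ME replicates 1 to 4. At P14 it was 0.0645, 0.150, 0.196 and 0.236 CPM in controls and 29.4, 29.2, 25.7 and 22.1 CPM in ME. At 8wk it was 0.223, 0.0524, 0.0698 and 0.257 CPM in controls and 13.6, 19.2, 19.1 and 32.3 CPM in ME. No ME library came near a control: the lowest ME library exceeded the highest control library 34.6-fold at E16, 93.4-fold at P14 and 52.7-fold at 8wk.

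The ratio of the group means was 55.3 at E16 (34.1 ± 8.63 against 0.617 ± 0.167 CPM, SD, n = 4), 165 at P14 (26.6 ± 3.46 against 0.162 ± 0.0738) and 140 at 8wk (21.0 ± 7.97 against 0.151 ± 0.105). The edgeR log2 fold changes were 5.79 ± 0.37, 7.31 ± 0.41 and 7.05 ± 0.41 (SE). The larger ratios after birth go with lower controls, not with higher ME levels: the ME mean was highest at E16, while the 4 control libraries of P14 and of 8wk all lay below the 4 of E16. Control values rest on few reads, 105 counts over the 4 libraries at E16, 40 at P14 and 34 at 8wk, against 6562, 4858 and 3925 in ME, so the ratios are less certain than the ME levels. The difference in CPM, which does not divide by the controls, was 33.5, 26.4 and 20.9.

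**Figure D1:**
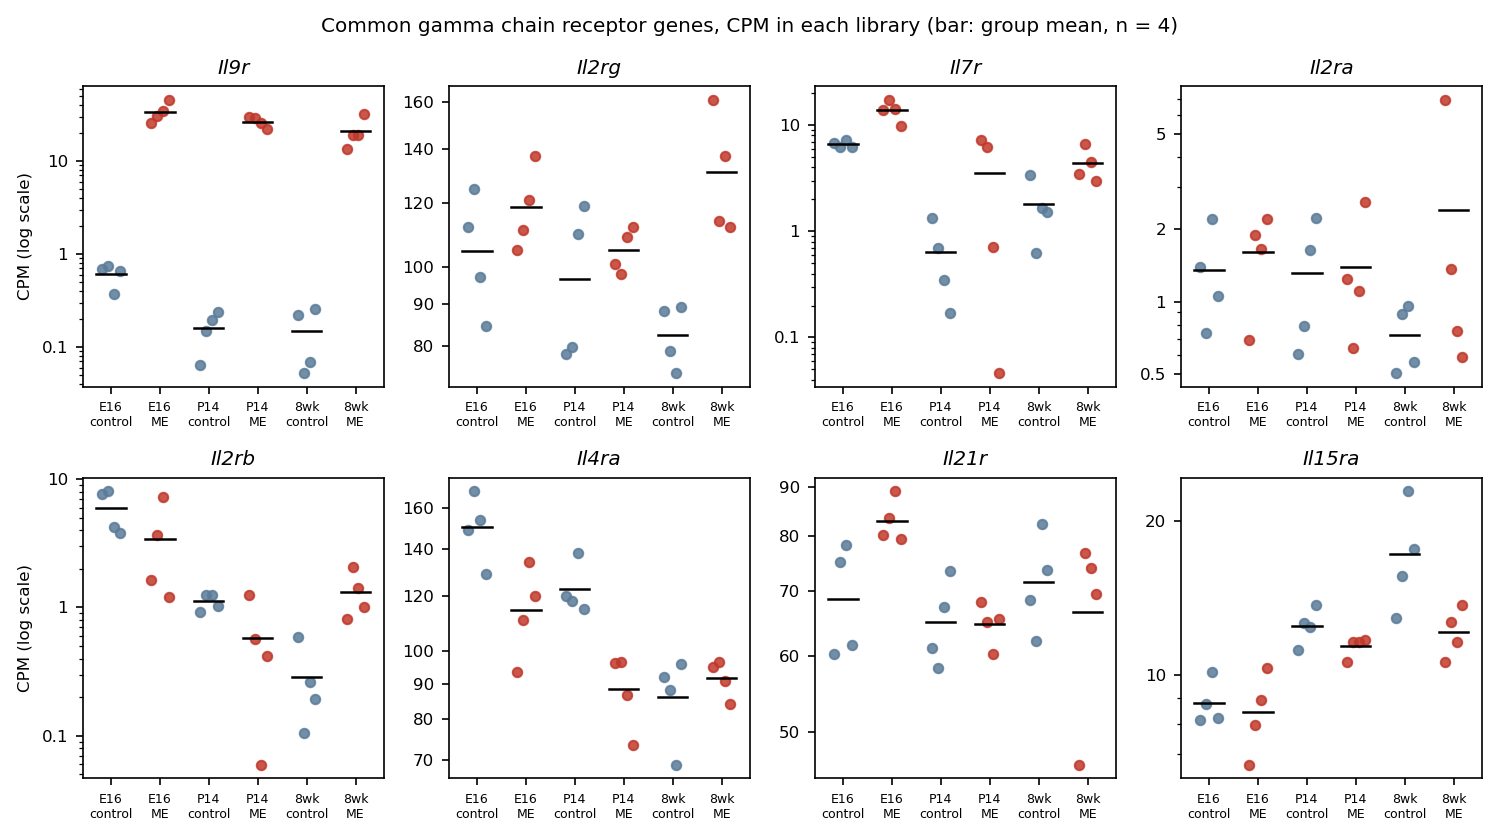
Level of each of the 8 receptor genes in every library, in CPM on a log axis whose range differs between panels. Points are libraries (blue control, red ME) and bars the mean of 4 libraries. Il9r separates ME from control at all 3 ages, with ME libraries between 13.6 and 45.7 CPM and controls at or below 0.738 CPM. Il2rb and Il7r vary more between ages and between replicates.

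Markers of the mature cells that are known to carry the interleukin 9 receptor were looked up in the same libraries. The summed level of 10 mast cell and basophil markers was 132 to 223 CPM in E16 ME libraries and 180 to 263 CPM in E16 controls, 83.7 to 200 against 69.5 to 191 CPM at P14, and 120 to 194 against 142 to 282 CPM at 8wk. Of the 10, edgeR called 2 lower at E16, 1 higher and 1 lower at P14 and 1 lower at 8wk. The medians of the 10 were -0.91, 0.46 and -0.73 log2. Over all genes 13.3%, 12.7% and 14.2% were called higher at E16, P14 and 8wk, and 8.47%, 9.35% and 14.3% lower. These shares apply to each marker list below. Mcpt8, a basophil protease, fell in ME at each age by 2.53, 1.60 and 1.97 log2 (edgeR adjusted p = 3.99e-05, 0.00183 and 2.89e-04). At P14 the median of the list and the marker called higher went the other way. The 9 markers of group 2 innate lymphoid cells summed to 12.6 to 29.2 CPM in all libraries. The sums overlapped between ME and control at E16 and 8wk, but at P14 were 21.1 to 23.9 CPM in ME and 12.6 to 18.4 CPM in controls. Of 5 tested markers of these cells 1, 3 and 1 were called higher at E16, P14 and 8wk, and without the 3 libraries that stood apart 0, 3 and 1 (at E16 also 0 by limma-voom, and 1 by DESeq2 and at an unadjusted p under 0.05). Rora was called at every age (0.71, 0.66 and 0.90 log2), at 8wk in 20 of 20 alternatives but at E16 and at P14 in 9 of 20. The E16 call was lost without control replicates 2, 3 or 4 (adjusted p = 0.112, 0.0971 and 0.0975) or ME replicates 3 or 4 (0.0893 and 0.125), and the P14 call without any single P14 library (0.0528 to 0.124). Klrg1 was at 0 in E16 ME, P14 ME and all P14 and 8wk controls. The 14 T and NK cell markers summed to 164 to 203 CPM in E16 ME and 166 to 205 CPM in E16 controls, and ranges overlapped at the other ages too, with 1, 3 and 3 of 12 tested markers called higher and 1 lower at P14 and at 8wk. The part of these markers in the Il9r result was not tested. In bulk libraries fewer cells of a type and less RNA per cell cannot be told apart.

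Per length, as CPM per kb of merged exons, Il9r moved from the last to the fourth place of the 8 genes. In controls it had the lowest level of the set at every age, 0.125 ± 0.0338 at E16, 0.0326 ± 0.0149 at P14 and 0.0305 ± 0.0212 at 8wk (SD, n = 4). In ME it reached 6.89 ± 1.74, 5.38 ± 0.699 and 4.25 ± 1.61, below Il2rg, Il4ra and Il21r and above the other 4 genes. In 8wk ME the order per length was Il2rg (54.9 ± 9.73), Il21r (20.0 ± 4.20), Il4ra (15.3 ± 0.924), Il9r, Il15ra (2.73 ± 0.296), Il7r (0.944 ± 0.340), Il2ra (0.424 ± 0.534) and Il2rb (0.309 ± 0.129). Il9r and Il15ra there lie within their spreads, and with the length of the longest transcript Il15ra comes before Il9r (5.24 against 4.70). Il7r, Il2ra and Il2rb also cannot be ordered beyond their spread.

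RNA of the partner chain was above that of Il9r in every group. Per length, Il9r RNA amounted to 0.287 ± 0.0793% of Il2rg RNA in E16 controls, 0.0780 ± 0.0258% in P14 controls and 0.0847 ± 0.0537% in 8wk controls. In ME it was 13.7 ± 1.83%, 12.3 ± 2.29% and 8.22 ± 4.20% (SD, n = 4). The 8wk ME libraries spread from 4.07 to 14.0% and overlapped the other ME groups.

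Genes next to Il9r were higher in ME too. The 250 kb on each side of Il9r hold 14 genes, 10 of which were tested, and edgeR called 4 of the 10 higher at E16, 5 at P14 and 5 at 8wk. It called 0 of the 10 lower, as did DESeq2 and limma-voom, with 0 at an unadjusted p under 0.05. Over all genes, 13.3%, 12.7% and 14.2% were called higher at the 3 ages. Rhbdf1, an inactive relative of the rhomboid proteases whose gene ends 9.3 kb upstream of Il9r, was at 1.20, 0.892, 1.92 and 0.908 CPM in E16 controls and 14.7, 15.5, 15.9 and 18.8 CPM in E16 ME. It rose by 3.71 ± 0.36 log2 at E16, 3.59 ± 0.35 at P14 and 2.83 ± 0.34 at 8wk (SE; edgeR adjusted p = 4.41e-07, 4.43e-07 and 6.09e-06). All ME libraries were above all controls of their age.

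Snrnp25, a protein of the minor spliceosome and the nearest tested gene at 5.1 kb, was well expressed in controls (88.4 ± 4.79 CPM at E16, SD, n = 4) and rose by 0.81 ± 0.15, 0.79 ± 0.15 and 0.66 ± 0.15 log2 (adjusted p = 3.83e-04, 4.36e-04 and 0.00205). Mpg, a DNA repair glycosylase 26.2 kb away, stood at 6.00, 6.86, 6.39 and 6.47 CPM in E16 controls and 15.5, 16.8, 17.8 and 15.7 CPM in E16 ME. Its rise was 1.36 ± 0.11, 1.39 ± 0.11 and 1.30 ± 0.11 log2 (adjusted p = 3.61e-08, 3.52e-08 and 8.05e-08). Mpg lies within the span of the gene Nprl3, so its counts may hold reads of Nprl3. On the other side, Nsg2, an endosomal protein known from neurons that starts 128.3 kb away, rose by 2.35 ± 0.44, 1.70 ± 0.41 and 1.61 ± 0.42 log2 from a low level (0.539 CPM in E16 controls; adjusted p = 5.24e-04, 0.00474 and 0.00682; 2.20 log2 at 8wk without the 3 libraries that stood apart). For these 3 genes too the ME and control libraries did not overlap at any age, against 27.2%, 26.5% and 21% of all genes.

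Not every gene of the stretch moved. Nprl3, a nutrient-signal regulator whose introns hold the enhancers of the alpha globin genes, changed by 0.20 ± 0.12, 0.19 ± 0.12 and 0.53 ± 0.12 log2 and was called at 8wk (adjusted p = 0.272, 0.300 and 0.00334). Its ME effect at 8wk was not shown to differ from that at E16 (0.33 ± 0.18 log2, adjusted p = 0.402) or P14 (0.34 ± 0.18 log2, adjusted p = 0.472). Nprl3 spans -67.4 to -25.3 kb from the start of Il9r, and all of Mpg (-32.4 to -26.2 kb) lies within that span on the opposite strand. Without the strand setting of the counting, reads of Mpg and Nprl3 may be mixed. Sh3pxd2b, 147.5 kb upstream, was not called (0.27, -0.15 and 0.27 log2). The alpha globins Hba-a1 and Hba-a2, near-identical copies whose counts are uncertain, were not called either (at E16 -0.11 ± 1.10 and -0.19 ± 1.07 log2). Hbq1b, the fifth call at P14, stood at 0.178 CPM in ME and 0.0215 CPM in controls, which is a handful of reads.

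**Figure D2:**
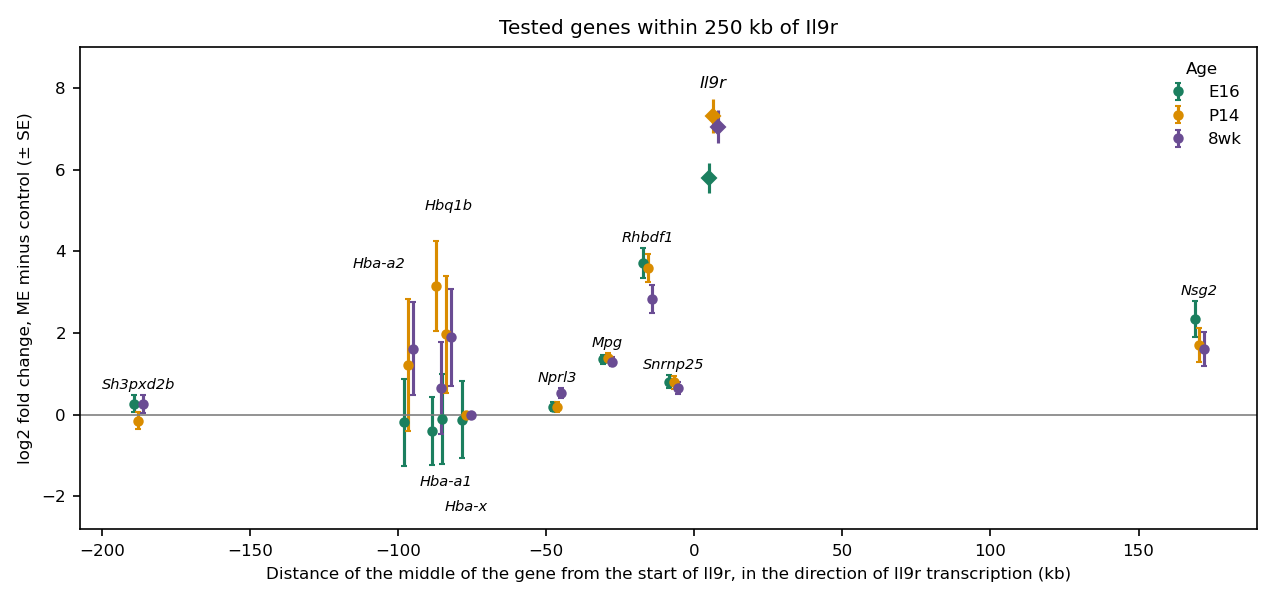
Log2 fold change of ME minus control with its standard error for the tested genes within 250 kb of Il9r, by distance of the middle of each gene from the start of Il9r (kb, negative is upstream); colours are ages and diamonds are Il9r. Rhbdf1, Mpg, Snrnp25 and Nsg2 lie above 0 at all 3 ages, at 2.83 to 3.71, 1.30 to 1.39, 0.66 to 0.81 and 1.61 to 2.35, while the globin genes have wide errors.

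The genes with the pattern most like that of Il9r over the 24 libraries were ranked by the root mean square difference of log2 CPM after each gene was centred. Over 13485 genes of at least 1 CPM on average the median difference was 3.42. Cdh2, the adhesion protein N-cadherin, came first at 0.96, with 0.715 and 46.0 CPM in E16 control and ME, 0.235 and 25.8 CPM at P14, and 0.0107 and 12.7 CPM at 8wk. Src, a tyrosine kinase, followed at 1.26, Nkx2-3, a homeobox factor, at 1.46, Plch2, a phospholipase C, at 1.56, and Amigo2, an adhesion protein, at 1.57. None of the 5 lies on the same stretch as Il9r, and these values are a description of likeness.

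The other 7 receptor genes did not share the Il9r pattern. At E16 edgeR called 1 of the 7, which was lower, when 21.8% of all genes were called (13.3% higher, 8.47% lower). At P14 it called 1 higher and 1 lower, against 22% of all genes (12.7% higher, 9.35% lower), and at 8wk 2 higher and 1 lower, against 28.5% (14.2% and 14.3%). The median log2 fold change of the 7 was 0.18, -0.01 and 0.67, and that of all genes 0.02, 0.03 and -0.02. No gene of the 7 was called at all 3 ages. Of all calls 61.1% were higher at E16 and 57.5% at P14; scaled by library size only, with a median of all genes of 0.11 log2 at both ages, these shares were 74.6% and 70.5%. At 8wk 49.8% of all calls were higher, but 60.4% without control replicate 3 (1359 lower calls in place of 2708), 67.9% in a fit of the 8wk libraries alone and 83.9% with the replicate block in it.

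**Figure D3:**
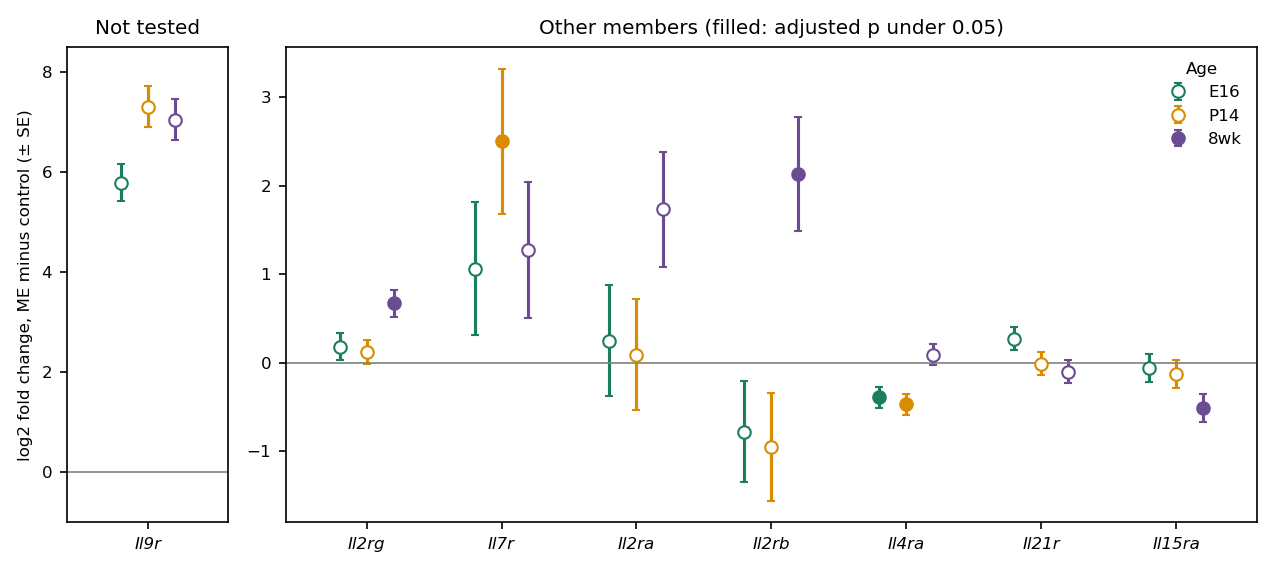
Log2 fold change of ME minus control with its standard error for the 8 receptor genes; colours are ages. The left panel has its own axis and shows Il9r, which was not tested (5.79, 7.31 and 7.05). In the right panel filled points had an edgeR adjusted p under 0.05: Il4ra at E16 and P14, Il7r at P14, and Il2rg, Il2rb and Il15ra at 8wk.

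Il2rg, the common chain, had the highest level per length of the set in all 6 groups. At 8wk it was 88.3, 78.7, 74.0 and 89.2 CPM in controls and 161, 114, 137 and 112 CPM in ME. All 4 ME libraries lay above all 4 controls, and Il2rg rose by 0.67 ± 0.15 log2 (adjusted p = 0.00183). At E16 (112, 125, 97.2 and 84.7 against 105, 111, 121 and 137 CPM) and at P14 (78.2, 79.7, 110 and 119 against 101, 98.2, 109 and 112 CPM) the groups overlapped, with 0.18 ± 0.15 and 0.12 ± 0.14 log2 (adjusted p = 0.411 and 0.615). The 8wk call held in each of 20 alternative analyses, with an adjusted p from 1.82e-04 to 0.0271. Summed levels of 11 monocyte, macrophage and dendritic cell markers were 485, 424, 403 and 59.5 CPM in 8wk ME and 322, 36.7, 19.3 and 29.6 CPM in 8wk controls. Of the 11, edgeR called 8 higher in 8wk ME (5 by limma-voom), against 14.2% of all genes, and 10 without the 3 libraries that stood apart. Without those libraries Il2rg was called too. Within the ME group Il2rg was highest in replicate 1 and lowest in replicate 4, as were the markers, but replicates 2 and 3 ranked the other way. Among the controls the markers were highest in replicate 1 (322 CPM) and Il2rg in replicate 4 (89.2 CPM). The part of these markers in the Il2rg result was not tested.

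Il7r, the interleukin 7 receptor of early lymphoid cells, was higher in ME in most libraries, with a large spread. At P14 it was 1.33, 0.703, 0.346 and 0.169 CPM in controls and 7.25, 6.22, 0.715 and 0.0461 CPM in ME. ME replicates 1 and 2 were above all controls, replicate 3 was inside their range and replicate 4 below it. The edgeR difference of 2.50 ± 0.82 log2 (adjusted p = 0.0330) was lost in 9 of 20 alternatives. Its adjusted p was 0.125 without ME replicate 1, 0.102 without ME replicate 2, 0.0655, 0.0960 and 0.102 without control replicates 2, 3 and 4, and 0.0852 (1.87 ± 0.65 log2) with the replicate number as a block in a fit of the P14 libraries.

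B-lineage RNA followed the same split at P14, where edgeR called 10 of the 12 B-lineage markers higher in ME (2 by limma-voom), and 3 at E16 and 3 at 8wk. Over all genes 13.3% were called higher at E16, 14.2% at 8wk and 12.7% at P14. The 12 B-lineage markers summed to 370, 186, 73.3 and 50.9 CPM in ME replicates 1 to 4 and 45.1 to 53.4 CPM in controls. Cd79a, which signals for the antigen receptor of B cells, was at 76.8, 26.3, 1.41 and 0.207 CPM. ME replicates 1 and 2 were female and replicates 3 and 4 male by Xist and Y-linked genes, so sex, replicate number and this split cannot be told apart within the P14 ME group. In P14 controls Cd79a was also higher in replicates 1 and 2 (1.35 and 1.38 CPM) than in 3 and 4 (0.271 and 0.0844 CPM). Il7r divided the same way there, but the sum of the 12 markers did not (46.4, 45.6, 53.4 and 45.1 CPM). Control replicates 1 to 3 were female. At E16 Il7r was 6.84, 6.21, 7.19 and 6.27 CPM in controls and 13.9, 17.4, 14.2 and 9.81 CPM in ME, with no overlap.

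With the spread shared over all 6 groups the E16 difference of 1.06 ± 0.75 log2 was not called (adjusted p = 0.337), while a fit of the E16 libraries alone gave 1.07 ± 0.18 log2 and an adjusted p of 0.00367. B-lineage sums at E16 were 115 to 230 CPM in ME and 69.7 to 83.3 CPM in controls. At 8wk Il7r was 3.39, 0.629, 1.66 and 1.52 CPM in controls and 3.50, 6.59, 4.50 and 3.01 CPM in ME, a difference of 1.27 ± 0.77 log2 (adjusted p = 0.231), with B-lineage sums of 86.4 to 115 against 41.4 to 74.1 CPM. The part of these markers in the Il7r values was not tested.

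**Figure D4:**
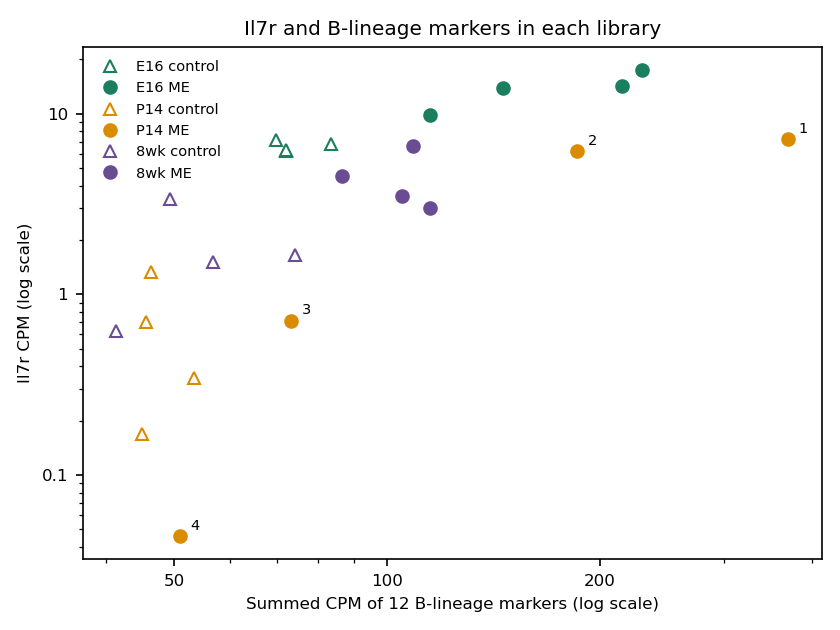
Il7r level against the summed level of 12 B-lineage markers in each of 24 libraries, both in CPM on log axes; colours are ages, triangles control and circles ME, and the numbers are the P14 ME replicates. P14 ME replicates 1 and 2 (7.25 and 6.22 CPM of Il7r) lie far from replicates 3 and 4 (0.715 and 0.0461 CPM) on both axes.

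Crlf2, which joins Il7r in the receptor for thymic stromal lymphopoietin and lies outside the family, was higher in ME as well. At P14 it was 13.0, 9.18, 10.7 and 2.77 CPM in controls and 64.9, 28.5, 19.8 and 24.1 CPM in ME, and it rose by 1.94 ± 0.48 log2 (adjusted p = 0.00598). At 8wk it rose by 1.66 ± 0.48 log2 (adjusted p = 0.0131), a call lost without ME replicate 1 (0.99 ± 0.43 log2, adjusted p = 0.0948), which at 52.0 CPM was far above the other 3 ME libraries (21.9, 13.4 and 11.3 CPM). At E16 the groups did not overlap (18.9, 13.9, 14.4 and 15.7 against 47.6, 38.7, 24.4 and 28.7 CPM), with 1.14 log2 and an adjusted p of 0.0880. Il13ra1, which joins Il4ra in the receptor shared by interleukins 4 and 13, was at 6.43, 0.917, 1.47 and 1.09 CPM in 8wk controls and 19.4, 14.6, 11.5 and 3.66 CPM in 8wk ME. The groups overlapped through control replicate 1 and ME replicate 4, and it rose by 2.29 ± 0.53 log2 (adjusted p = 0.00301). The difference was 3.39 log2 without control replicate 1 and 3.69 ± 0.35 log2 without the 3 libraries that stood apart, and the call was lost in a fit of the 8wk libraries alone (adjusted p = 0.0623). Monocyte, macrophage and dendritic cell markers summed to 322, 36.7, 19.3 and 29.6 CPM in these controls and 485, 424, 403 and 59.5 CPM in these ME libraries. Their part in the Il13ra1 result was not tested.

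The 3 genes of the interleukin 2 and 15 receptors were low or changed at 1 age. Il2rb, their shared signalling chain, was at 0.586, 0.105, 0.262 and 0.193 CPM in 8wk controls and 0.812, 2.06, 1.42 and 1.00 CPM in 8wk ME. The groups did not overlap, and Il2rb rose by 2.13 ± 0.64 log2 (adjusted p = 0.0163; 2.77 log2 without control replicate 1 and 2.88 log2 without the 3 libraries that stood apart). At E16 it was 7.67, 8.06, 4.25 and 3.83 against 1.64, 3.65, 7.29 and 1.21 CPM in ME, and at P14 0.924, 1.24, 1.26 and 1.03 against 1.26, 0.565, 0.0596 and 0.415 CPM in ME. Both differences were negative, -0.78 ± 0.57 and -0.95 ± 0.61 log2, and neither was called (adjusted p = 0.351 and 0.291). The 8wk call was lost in 7 of 20 alternatives with adjusted p of 0.0506 to 0.0600, among them the fits without control replicate 2 (0.0537), 3 (0.0506) or 4 (0.0518) and without ME replicate 2 (0.0554). T and NK cells are known for Il2rb, and of their markers Prf1 (perforin), Klrb1c and Cd28 were called higher in 8wk ME and Trbc2 lower (6 were called higher without the 3 libraries that stood apart, and 1 by limma-voom), while the sum of the 14 overlapped (245 to 325 against 256 to 394 CPM). At 8wk 14.2% of all genes were called higher and 14.3% lower. The part of these markers in the Il2rb result was not tested.

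Il2ra, the chain that raises affinity for interleukin 2, stayed between 0.502 and 2.60 CPM in 23 libraries. The exception was 8wk ME replicate 1 at 6.97 CPM, and the other 8wk ME libraries (1.37, 0.751 and 0.585 CPM) overlapped the controls (0.502, 0.891, 0.960 and 0.558 CPM). The 8wk difference was 1.73 ± 0.65 log2 (adjusted p = 0.0505), and 0.31 log2 without that library (adjusted p = 0.710). It was called in 8 of 20 alternatives, for example by DESeq2 (adjusted p = 0.0169) and without ME replicate 3 or 4 (0.0294 and 0.0198). At E16 and P14 it was 0.25 ± 0.63 and 0.09 ± 0.63 log2, with 95% intervals of -0.99 to 1.49 and -1.15 to 1.32.

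Il15ra, the chain that presents interleukin 15, fell at 8wk from 12.9, 15.6, 22.9 and 17.6 CPM in controls to 10.6, 12.7, 11.6 and 13.7 CPM in ME. The groups overlapped by 1 library each, and the difference was -0.51 ± 0.16 log2 (adjusted p = 0.0190). It was lost in 6 of 20 alternatives: without control replicate 3, the highest, it was -0.30 log2 with an adjusted p of 0.184, and without ME replicate 1 or 3 the adjusted p was 0.0545 or 0.0508. At E16 and P14 it was -0.06 ± 0.16 and -0.13 ± 0.16 log2. Il2ra and Il15ra are neighbours on chromosome 2, 12.1 kb apart on the same strand.

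Il4ra, the interleukin 4 receptor, fell at E16 and P14. At P14 it was 120, 118, 138 and 115 CPM in controls and 96.4, 96.6, 86.7 and 73.6 CPM in ME, with no overlap, and fell by 0.47 on the log2 scale (SE 0.12, adjusted p = 0.00622), a call kept in 20 of 20 alternatives. At E16 it was 149, 169, 154 and 129 CPM in controls and 93.5, 111, 134 and 120 CPM in ME, a difference of -0.39 ± 0.12 log2 (adjusted p = 0.0206). That call was lost in 7 of 20 alternatives: the adjusted p was 0.0772 and 0.0514 without control replicate 2 or 3, 0.0782 and 0.0531 without ME replicate 1 or 2, and 0.0738 with library size scaling. At 8wk the groups overlapped (92.0, 88.0, 69.0 and 95.8 against 94.9, 96.6, 90.7 and 84.1 CPM, 0.09 ± 0.12 log2, 95% interval -0.15 to 0.32).

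Il21r, the interleukin 21 receptor, lies 24.0 kb from Il4ra on chromosome 7 on the same strand. At E16 all ME libraries (80.1, 83.4, 89.0 and 79.3 CPM) were above all controls (60.3, 75.1, 78.3 and 61.5 CPM), but the difference of 0.27 ± 0.13 log2 was not called (adjusted p = 0.149). At P14 and 8wk the groups overlapped, with -0.01 ± 0.13 and -0.10 ± 0.13 log2 and 95% intervals of -0.26 to 0.25 and -0.36 to 0.15. The lowest library was 8wk ME replicate 1 at 46.2 CPM, against 69.6 to 76.8 CPM in the other 3.

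Whether the response to MLL::ENL differed between ages was tested as a difference of 2 ME effects, and edgeR and limma-voom called 0 of the 7 genes in each of the 3 tests. At an unadjusted p under 0.05 there were 0 for P14 minus E16, 3 for 8wk minus E16 and 3 for 8wk minus P14. In these tests 0.0211% of all genes were called for P14 minus E16, 0.85% for 8wk minus E16 and 0.301% for 8wk minus P14. The largest was Il2rb, by 2.92 ± 0.85 log2 for 8wk minus E16 (unadjusted p = 0.00256, adjusted p = 0.102) and 3.08 ± 0.88 log2 for 8wk minus P14 (0.00212 and 0.157). DESeq2 called both (adjusted p = 0.0152 and 0.0157). So did edgeR without 8wk control replicate 1 (3.55 ± 0.90 and 3.72 ± 0.93 log2, adjusted p = 0.0301 and 0.0435) and without the 3 libraries that stood apart (adjusted p = 0.0309 and 0.0190); without E16 ME replicate 3 the first was called (0.0460). For Il2rg the 2 differences were 0.49 ± 0.21 and 0.55 ± 0.21 log2 (unadjusted p = 0.0268 and 0.0139, adjusted 0.265 and 0.284), and for Il4ra 0.48 ± 0.17 and 0.56 ± 0.17 log2 (unadjusted 0.00891 and 0.00300, adjusted 0.170 and 0.178).

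The control libraries alone show how the receptors differ with age. From E16 to P14 edgeR called 1 of the 7 higher and 2 lower, against 15.1% of all genes (7.61% higher, 7.51% lower). From E16 to 8wk it called 1 higher and 2 lower, against 23.3% (12.5% and 10.8%), and from P14 to 8wk 1 lower, against 12.6% (7.01% and 5.58%). Il2rb differed most between E16 and 8wk, with 5.95 ± 2.22 CPM at E16, 1.11 ± 0.166 at P14 and 0.286 ± 0.210 at 8wk (SD, n = 4): it was lower by -2.41 ± 0.60 log2 at P14 (adjusted p = 0.00799) and by -4.30 ± 0.67 log2 at 8wk (adjusted p = 7.29e-05; -4.94 log2 without 8wk control replicate 1) than at E16. Il7r was 6.63 ± 0.469 CPM at E16, 0.637 ± 0.514 at P14 and 1.80 ± 1.15 at 8wk. From E16 to P14 it fell, with a difference of -3.40 ± 0.84 log2 (adjusted p = 0.00803), and for 8wk minus E16 was at -1.86 ± 0.77 log2 (adjusted p = 0.0893) with no overlap. Il4ra went from 150 ± 16.3 through 123 ± 10.2 to 86.2 ± 11.9 CPM, and fell by 0.80 on the log2 scale from E16 to 8wk (adjusted p = 3.61e-05) and by 0.51 from P14 to 8wk (adjusted p = 0.00866).

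Il15ra went the other way, from 8.81 ± 0.909 CPM at E16 to 12.5 ± 1.05 at P14 and 17.2 ± 4.21 at 8wk. It rose by 0.97 ± 0.16 log2 from E16 to 8wk (adjusted p = 1.07e-04) and by 0.50 ± 0.16 log2 from E16 to P14 (adjusted p = 0.0328), and the second call was lost in 8 of 20 alternatives, with an adjusted p of 0.0897, 0.0684 and 0.0654 without E16 control replicates 1, 2 and 4 and of 0.0609, 0.0623 and 0.0964 without P14 control replicates 2, 3 and 4. Il2rg (105 ± 17.5, 96.7 ± 20.9 and 82.6 ± 7.41 CPM), Il21r (68.8, 65.1 and 71.6 CPM) and Il2ra (1.35, 1.32 and 0.728 CPM) were called in no pair of control ages. E16 and later ages also differ in tissue, liver against bone marrow. The comparisons of ages and of ME against control share their control libraries.

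RNA of the cytokines themselves was scarce, apart from Il15. Of 8 ligand genes 5 passed the filter, and edgeR called 0 of the 5 in ME against control at any age (0 by DESeq2 and limma-voom, and 1, 0 and 0 at an unadjusted p under 0.05). Il9, the ligand of Il9r, had 7 counts over all 24 libraries, Il13 had 3 and Il21 had 4. Il15, which stromal and myeloid cells make, was the most abundant, at 13.2 ± 1.83, 16.0 ± 1.63 and 19.3 ± 2.33 CPM in controls and 17.6 ± 3.88, 20.1 ± 3.53 and 18.2 ± 5.83 CPM in ME (adjusted p = 0.138, 0.256 and 0.804). Il7 was at 1.70 to 3.35 CPM in the 6 group means Il2 at 2.01 to 3.46 CPM and Il4 at 0.252 to 0.497 CPM.

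Among the kinases and STAT factors that work under cytokine receptors, Jak2 was called higher in ME at every age. Of 9 JAK and STAT genes edgeR called 2 higher at E16, 2 higher and 1 lower at P14 and 3 higher at 8wk. Over all genes 13.3%, 12.7% and 14.2% were called higher at these ages, and 9.35% lower at P14. The medians of the 9 were 0.06, 0.00 and 0.35 log2. Without the 3 libraries that stood apart 1 was called higher at E16 and 4 at 8wk. Jak1 (0.06, -0.15 and 0.11 log2), Jak3 (0.19, 0.28 and 0.47), Stat5a (-0.04, -0.15 and 0.01) and Stat5b (0.18, 0.28 and 0.33) were not called at any age. Jak2, a kinase of other cytokine receptors, rose by 1.89 ± 0.41, 2.16 ± 0.41 and 2.31 ± 0.42 log2 (adjusted p = 0.00250, 7.55e-04 and 4.28e-04). In each ME group its replicates 1 and 2 (43.6 and 46.7 CPM at E16, 54.4 and 55.9 at P14, 58.1 and 59.1 at 8wk) were above replicates 3 and 4 (18.1 and 14.8, 29.4 and 16.4, 28.7 and 17.6 CPM), and all were above every control library (6.51 to 11.0 CPM).

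Stat6, the factor of Il4ra, was lower at P14 (-0.33 log2, adjusted p = 0.0448) and higher at 8wk (0.35 log2, adjusted p = 0.0291), calls that were lost in 11 and 8 of 20 alternatives; leaving out single libraries of either group gave adjusted p up to 0.162 at P14 and 0.0957 at 8wk.

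Of 9 genes known to be induced by STAT factors, edgeR called 3 higher at E16, 3 at P14 and 5 at 8wk, and 2 lower at 8wk, against 13.3%, 12.7% and 14.2% of all genes higher and 14.3% lower at 8wk. The medians were 0.14, 0.32 and 1.12 log2; without the 3 libraries that stood apart the E16 median was -0.03 log2 and 1 gene was lower there. Socs1, an inhibitor that limits JAK activity, was at 2.34, 1.60, 0.872 and 0.165 CPM in E16 controls and 15.3, 8.47, 6.45 and 12.0 CPM in E16 ME. It rose by 3.06 ± 0.64, 3.07 ± 0.64 and 2.96 ± 0.64 log2 (adjusted p = 0.00172, 0.00167 and 0.00187), with no overlap at any age; at P14 it was 3.84 log2 without control replicate 1, and at 8wk 3.69 log2 without the 3 libraries that stood apart. Pim1, a survival kinase, rose by 0.97 ± 0.18, 1.36 ± 0.18 and 1.32 ± 0.18 log2 (adjusted p = 5.41e-04, 1.46e-05 and 2.50e-05), from 6.36 ± 0.847 to 12.5 ± 1.41 CPM at E16 (SD, n = 4).

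Mcl1, which protects cells from death, rose by 2.40 ± 0.56, 2.70 ± 0.57 and 2.77 ± 0.57 log2 (adjusted p = 0.00452, 0.00188 and 0.00135). Its ME libraries divided as those of Jak2 did: 184, 177, 51.9 and 35.9 CPM at E16, 185, 183, 82.9 and 37.8 CPM at P14, and 243, 225, 102 and 37.7 CPM at 8wk for replicates 1 to 4, against 14.3 to 23.6 CPM in all controls. Il9r was higher in ME replicates 1 and 2 than in 3 and 4 at P14 only, by a small margin (29.4 and 29.2 against 25.7 and 22.1 CPM), and at E16 and 8wk its highest ME library was replicate 4. Whether replicate numbers mark a shared culture or sequencing run is not given in the sources used here, so a batch by number and the split of Jak2 and Mcl1 cannot be told apart. Cish, the feedback gene most often used as a readout of STAT5, was not called (-0.17 ± 0.18, -0.28 ± 0.18 and 0.03 ± 0.18 log2, adjusted p = 0.541, 0.273 and 0.927), nor was Bcl2 (-0.23, 0.02 and -0.28 log2).

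The remaining calls of this list came at 8wk. Socs3, a feedback inhibitor, was at 6.05, 4.53, 4.47 and 4.27 CPM in controls and 40.7, 10.1, 10.4 and 6.83 CPM in ME. It rose by 1.81 ± 0.38 log2 (adjusted p = 0.00127), and by 0.91 ± 0.22 log2 without ME replicate 1 (adjusted p = 0.00494). Osm, the cytokine oncostatin M, rose by 1.12 ± 0.29 log2 (adjusted p = 0.00701), a call lost without ME replicate 1 (0.61 ± 0.24 log2, adjusted p = 0.0597). Socs2, another inhibitor, fell from 55.1 ± 6.10 to 30.8 ± 5.38 CPM (SD, n = 4), a change of -0.84 ± 0.24 log2 (adjusted p = 0.0134, and 0.0546 without control replicate 3). Pim2, a relative of Pim1, was at -0.63 ± 0.23 log2 (adjusted p = 0.0418), lost in 11 of 20 alternatives with an adjusted p of up to 0.139 (without ME replicate 3). Control replicates 3 and 4 (0.112 and 0.115) and ME replicates 2 and 4 (0.131 and 0.0514) each decided that call as well.

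Cytokine receptors that work without the common gamma chain, most of them through the beta common chain, gp130 or pairs of their own, were compared in the same way. Of 14 such genes edgeR called 1 lower at E16, 2 higher and 1 lower at P14, and 7 higher and 1 lower at 8wk (7 and 1 also without the 3 libraries that stood apart). Over all genes 13.3%, 12.7% and 14.2% were higher and 8.47%, 9.35% and 14.3% lower, so the E16 and P14 counts are near or below the background. The list had medians of 0.22, 0.19 and 0.68 log2. Csf2rb, the beta common chain of the receptors for interleukins 3 and 5 and GM-CSF, fell at E16 from 157 ± 34.4 to 83.1 ± 15.9 CPM (SD, n = 4) and at P14 from 115 ± 13.0 to 61.9 ± 13.7 CPM. These changes of -0.91 ± 0.19 and -0.89 ± 0.19 log2 (adjusted p = 0.00127 and 0.00151) were called in 20 of 20 alternatives, and at 8wk it was at 0.13 ± 0.19 log2 (adjusted p = 0.650). Csf2rb and Csf2rb2 are close relatives, so reads may be split between them.

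At 8wk Csf2ra rose by 1.60 ± 0.42 log2 (adjusted p = 0.00790), Il3ra by 1.58 ± 0.43 (0.00950), Csf2rb2 by 1.12 ± 0.28 (0.00486), Il10ra by 0.99 ± 0.22 (0.00221) and Il27ra by 0.80 ± 0.16 (7.66e-04), and these 5 were called in all 20 alternatives. Csf3r, the receptor for G-CSF, rose by 0.90 ± 0.26 log2 (adjusted p = 0.0127; 0.0501 and 0.0593 without control replicate 2 or 3), and Il10rb by 0.56 ± 0.13 (0.00293; 0.0552 in a fit of the 8wk libraries alone and 0.128 with the replicate number as a block in it). Without the 3 libraries that stood apart the rise of Csf2ra was 2.33 ± 0.39 log2. At P14 Il3ra (1.34 ± 0.43 log2, adjusted p = 0.0293) and Il5ra (1.98 ± 0.62, 0.0233) were higher; Il5ra stood at 0.116 CPM in controls and 0.475 CPM in ME. The Il3ra call was lost without control replicates 3 (0.0638) or 4 (0.0938) or ME replicates 1 (0.168) or 2 (0.0597), and the Il5ra call without control replicates 1 (0.0619), 2 (0.0505) or 4 (0.0773) or ME replicates 1 (0.0749) or 2 (0.0563). Several of these receptors are known from myeloid cells, whose markers were higher in 3 of 4 8wk ME libraries (403 to 485 CPM) than in 3 of 4 controls (19.3 to 36.7 CPM); their part in the 8wk rises was not tested.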

How the data were processed

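Per the submitters' processing notes, the authors used STAR 2.7.9a, the GRCm38 build and featureCounts 2.0.3 of Subread; the annotation, the strand setting and how read pairs were counted are not given in the sources used here. The deposited values are raw counts per Ensembl gene, 1 column for each of 24 libraries, with total RNA taken through an RNeasy and a Clontech kit per the labels. In the median library 63.6% of the counts from 1 to 20 were even, so both mates of a pair may have been counted and low counts may hold fewer molecules than they seem to. The file has 55774 lines for 55487 identifiers; 168 identifiers repeat with identical counts and were kept once.

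Groups came from the sample titles. Genes were filtered with filterByExpr (minimum count 10), and the 18931 left were fitted over all 24 libraries in edgeR 4.0.16 (R 4.3.3), scaled by TMM and tested by quasi-likelihood in robust mode, with Benjamini-Hochberg adjustment over all genes within each of 9 comparisons and calls at an adjusted p under 0.05. The comparisons were ME against control at 3 ages, the differences of these effects and the pairs of control ages. CPM use TMM-scaled library sizes. Levels between genes were divided by the merged exon length of GENCODE M21 (GRCm38), which also gave positions; coordinates are 1-based. Genes near Il9r were taken within 250 kb.

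The members and gene lists were chosen with earlier results of these data known. The named genes are the 8 members, the check genes Kmt2a, Mllt1 and Skida1, the tested protein-coding neighbours of Il9r, the 5 genes most like it and, of each list on ligands, partner receptors, JAK and STAT genes, STAT targets and other receptors, up to 4 genes with the smallest adjusted p in the ME comparisons. Osm, Socs2, Pim2, Cish, Bcl2, Jak1, Stat5a, Stat5b, Csf2rb2, Csf2ra, Il3ra, Il5ra and Csf3r, and the single markers of cell types, fall outside this rule and were chosen after their values were seen. Some called genes of the lists are counted but not reported here by name. Markers of LSK, T and NK, mast and basophil, group 2 innate lymphoid, B-lineage and monocyte, macrophage and dendritic cells were summed per library. Replicate numbers are shared between groups by the titles. At P14 same-numbered ME and control libraries deviated together (r = 0.14 to 0.23 over 4 pairs), so a fit with the number as a block is given where it changes a call. Alternatives were DESeq2 1.42.0, voom of limma 3.58.1, other scalings and filters, fits of the compared groups only, the block, leaving out each library, and, added after the data were seen, leaving out 3 libraries, a covariate of Y-linked expression, a GC correction and the block within the compared groups. The edgeR script was tested on simulated data.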

Additional observations from a re-analysis of the deposited data

Results flagged for a closer look

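Il2ra stood apart in 1 of the 4 8wk ME libraries: replicate 1 was at 6.97 CPM and the others at 1.37, 0.751 and 0.585 CPM. In the same library Il2rg (161 CPM) and Crlf2 (52.0 CPM) were the highest and Il21r (46.2 CPM) the lowest of the group. Il15ra stood apart in P14 ME replicate 1, at 10.6 CPM against 11.6, 11.6 and 11.7 CPM, a small gap among libraries that lie close together. In both groups the gap to the nearest library was above 0.829 of the whole range, Dixon's value for 4 samples. Of 48 groups looked at, 2 met this; chance gives it in about 1 group in 20.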

How the results depend on the processing

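Counts of the 7 tested receptor genes called moved as follows, and the cause was not tested. At E16 the count of 1 was 0 with library size scaling and 0 to 1 when single libraries were left out. At P14 the count of 2 was 1 with limma-voom, without a filter, and in a fit of the compared groups with or without the replicate block, and 1 to 2 without single libraries. At 8wk the count of 3 was 1 without a filter and 1 with the replicate block in the compared groups, and 1 to 4 without single libraries. For the 8wk minus E16 and the 8wk minus P14 effects the count of 0 was 1 with DESeq2 and 1 without the 3 libraries that stood apart, and 0 to 1 without single libraries. In controls the count of 3 for 8wk minus E16 was 5 with the block in the compared groups, and the count of 1 for 8wk minus P14 was 3 with DESeq2, 3 with a filter of 1 CPM in 4 libraries, 3 with the replicate block, 3 without the 3 libraries, 2 in a fit of those groups, and 1 to 3 without single libraries. The Il9r differences were 4.93, 5.35 and 4.99 log2 with 0.5 CPM added in each library. With the longest transcript as length, levels in 8wk ME were 78.4 for Il2rg, 17.4 for Il4ra, 26.7 for Il21r and 5.24 for Il15ra. Signs turned in uncalled differences near 0. At P14 Il21r was 0.07 with library size scaling, 0.01 with the 1 CPM filter, 0.00 in the compared groups, 0.01 with their replicate block, 0.00 with the Y-linked covariate and 0.04 with the GC correction, and Il2ra was -0.11 with the Y-linked covariate. Il15ra at E16 was 0.03 with library size scaling. Without single libraries the log2 ranges were -0.02 to 0.23 for Il2rg at P14, -0.39 to 0.46 for Il2ra at P14, -0.09 to 0.06 and -0.18 to 0.03 for Il21r at P14 and 8wk, -0.17 to 0.04 for Il15ra at E16, and -0.93 to 0.50 for Il2rb in P14 minus E16. Replicate numbers did not pair the ME and control libraries at E16 (r = -0.04 to 0.00) or 8wk (-0.09 to 0.12). Between control ages same-numbered libraries had r = -0.02 to 0.18 for P14 and E16 and -0.07 to 0.22 for 8wk and P14. For 8wk and E16 controls r was 0.04 to 0.27, which reaches as high as the P14 values of ME and control. Few reads limit Il9r in controls, Il2ra in all groups and Il2rb at P14 and 8wk.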

Other observations

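Markers of the LSK compartment itself differed between ME and control. Of the 7, edgeR called 1 higher and 1 lower at E16, 1 higher and 1 lower at P14, and 3 higher and 1 lower at 8wk. Over all genes 13.3%, 12.7% and 14.2% were called higher and 8.47%, 9.35% and 14.3% lower. Kit, the stem cell factor receptor used in the sort, was at 487 ± 90.6 CPM in 8wk controls and 1460 ± 303 CPM in 8wk ME (SD, n = 4), a rise of 1.59 ± 0.17 log2 (edgeR adjusted p = 2.33e-06). At 8wk Ly6a also rose by 1.06 ± 0.27 log2 (adjusted p = 0.00550) and Cd48 fell from 362 ± 124 to 172 ± 25.7 CPM (-1.07 ± 0.19 log2, adjusted p = 2.67e-04). Procr, a marker of stem cells, was higher in ME at each age, by 1.48 ± 0.24, 0.80 ± 0.24 and 0.74 ± 0.24 log2 (adjusted p = 1.54e-04, 0.0182 and 0.0227).

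Around the other receptor genes, within 100 kb, no neighbour was called at all 3 ages. Near Il2rb 1 of 7 tested genes was higher at E16, 1 higher at P14 and 1 lower at 8wk. Near Il2ra 1 of 4 was lower at P14 and 1 at 8wk. Lower calls near Il21r were 1 of 3 at E16 and at P14, and near Il15ra 1 of 3 at P14. Near Il7r the 1 tested gene was higher at E16, and near Il2rg and Il4ra 0 of 3 were called. Over all genes 21.8%, 22% and 28.5% were called at E16, P14 and 8wk. Windows overlap, so Il15ra near Il2ra and Il4ra near Il21r are among these calls. The P14 call near Il2ra and the P14 call near Il15ra are the same gene, Fbh1. Capsl near Il7r was higher at E16 (0.83 ± 0.28 log2, adjusted p = 0.0381), as was C1qtnf6 near Il2rb (0.66 ± 0.21 log2, adjusted p = 0.0263). Fbh1, 8.3 kb from Il15ra, was lower at P14 (-0.37 ± 0.09 log2, adjusted p = 0.00522), and Tst near Il2rb was lower at 8wk (-0.64 ± 0.21 log2, adjusted p = 0.0276).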
